A study of Rattus norvegicus with 232 samples.

Results

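WAG/RijCrl is an inbred rat strain in which spontaneous absence seizures are a known trait, and its brain RNA was compared with that of 7 other classic inbred strains sequenced alongside it. The members were taken by their strain label alone: 3 WAG/RijCrl animals on the one side, and on the other 21 animals, 3 each of BN/NHsdMcwi, FHH/EurMcwi, GK/FarMcwi, LH/MavRrrc, M520/N, MWF/Hsd and PVG/Seac. These 24 were drawn from 232 samples of 74 inbred strains. All were untreated rats that had never been given alcohol or drugs, and RNA depleted of ribosomal RNA was sequenced from whole brain tissue by a strand-aware protocol; the series describes its animals as male. The labels of these samples give neither an age nor a record of seizures, so the strain name alone marks the WAG/RijCrl animals as prone to absence epilepsy. The study's methods state that brains were divided along the midline and that a single side was used. They were written for an earlier set of samples, whose listed strains include none of those used here. Several of the 7 other strains are disease models of their own: GK of type 2 diabetes, LH of high blood pressure, and FHH and MWF of kidney damage.

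Absence seizures are brief lapses of awareness during which spike-and-wave discharges run through the circuit that joins the cortex and the thalamus. In that circuit, T-type calcium channels carry the current behind burst firing of thalamic neurons, HCN channels (opened by hyperpolarization) set how readily neurons return to rest, and GABA-A receptors (chloride channels opened by the transmitter GABA) time the rhythm. Genes for ion channels were therefore examined family by family. A whole-brain sample averages over all regions and cell types, and in such a sample fewer cells of a type and less RNA per cell cannot be told apart.

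Values are given as deposited, on a log2 scale on which 1 unit is a factor of 2. No table used here holds counts, so the sequencing depth is unknown and the number of animals limits the precision. A gene was called outside where all 3 WAG/RijCrl animals lay above the highest, or all 3 below the lowest, of the 21 others. The difference tested was the WAG/RijCrl mean minus the mean of the 7 other strain means, by limma with Benjamini-Hochberg adjustment over 20859 genes, and a gene passed at a false discovery rate (FDR) of 5%. WAG/RijCrl is 1 strain among 8, so that these p-values measure the spread between animals. A permutation of strain labels could not go below p = 0.125 (exact, two-sided), the smallest value that 8 strains allow.

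The sequencing batches were spread unevenly over the strains. WAG/RijCrl 1 was in batch 15 with 3 animals of other strains, WAG/RijCrl 2 and 3 were in batch 16 with 7, and batch 17 held 11 animals and no WAG/RijCrl. Values within batches 15 and 16 are therefore given for the genes with a symbol that met both criteria. They are also given for the ion channel genes Ano2, Kcnj8 and Gjc1, and summarised for the genes tied to absence seizures. Labels were looked at in 207 genes picked for separating the other strains, with a cut on the spread over all 24 animals. Each library was nearest to another of its own label, which for the other strains follows from the pick. For WAG/RijCrl 1, 2 and 3 the highest correlation with a library of their own label was 0.8, 0.723 and 0.8. With libraries of other labels it was 0.329, 0.265 and 0.302. The 6 genes of the Y chromosome list had mean levels of 7.14, 6.89 and 6.86 in the WAG/RijCrl animals, within the 6.80 to 7.46 of the others.

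Among the libraries, 2 stood apart. WAG/RijCrl 2 lay beyond the range of all animals of other strains in 34.3% of genes and MWF/Hsd 1 did so in 34.5%. The remaining 22 libraries did so in 3.49% to 12% of genes. WAG/RijCrl 1 and 3 were at 3.82% and 4.71%. The level averaged over 6 hypothalamus markers was 7.86 in WAG/RijCrl 2 and at most 7.33 in the 21 others, and over 6 ependyma markers it was 7.59 and at most 7.36. The part of these marker shifts in the results was not tested, and counts are given with and without both libraries.

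**Figure D1:**
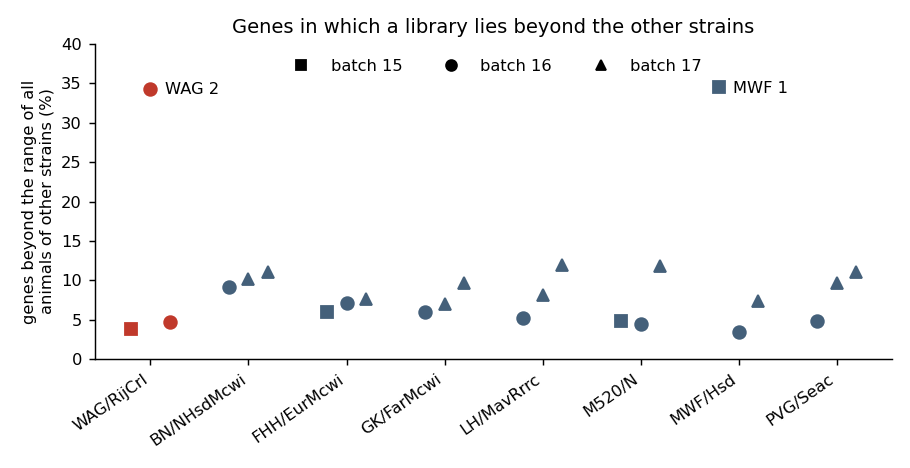
For each of the 24 libraries (points, grouped by strain on the x axis; shape gives the sequencing batch), the y axis shows the percentage of genes in which its value lay beyond the range of all animals of the other strains. WAG/RijCrl 2 at 34.3% and MWF/Hsd 1 at 34.5% stand far above the remaining libraries, which reach at most 12%.

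WAG/RijCrl differed from the other strains in few genes. All 3 WAG/RijCrl animals were outside in 30 genes, or 0.144% of those tested, 17 above (0.0815%) and 13 below (0.0623%). When the same count was made for each of the other strains against its own 21 comparison animals it ran from 85 genes in M520/N to 305 in GK/FarMcwi, so that WAG/RijCrl had the lowest count of the 8. Past 5% FDR there were 158 genes (0.757%), 83 higher (0.398%) and 75 lower (0.36%) in WAG/RijCrl. The same contrast called between 297 genes (M520/N) and 972 (BN/NHsdMcwi) in the other strains. Both criteria together were met by 14 genes (0.0671%), 7 above (0.0336%) and 7 below (0.0336%). From 2 animals, WAG/RijCrl had 83 outside genes without WAG/RijCrl 2, 211 without WAG/RijCrl 1 and 228 without WAG/RijCrl 3, and the other strains had 173 to 574. Without both WAG/RijCrl 2 and MWF/Hsd 1, 98 genes were outside in WAG/RijCrl and 127 in M520/N, the next lowest, 81 passed 5% FDR (0.388%) and 19 met both criteria.

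**Figure D2:**
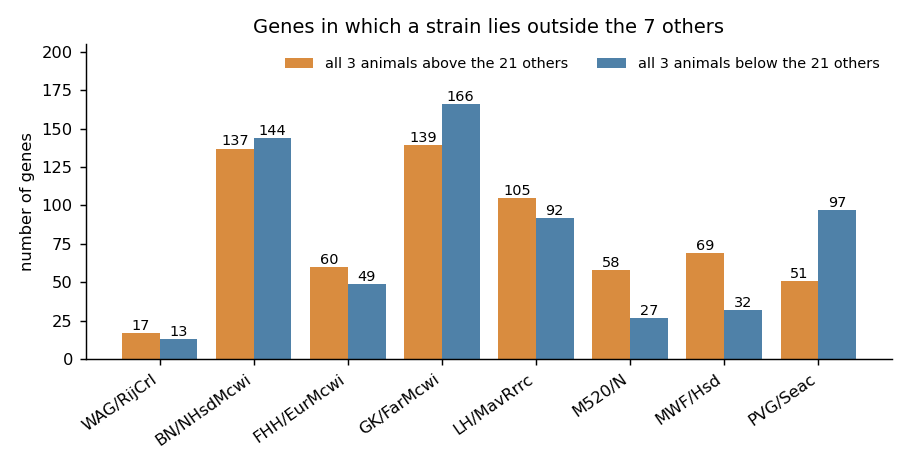
Number of genes (y axis) in which all 3 animals of a strain lay above (orange) or below (blue) the 21 animals of the 7 other strains, for each of the 8 strains (x axis). WAG/RijCrl has 17 genes above and 13 below, the fewest of the 8, and GK/FarMcwi has 139 and 166.

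Of the 30 outside genes, 15 carry a gene symbol and all of these are protein coding, with 6 above and 9 below. The other 15 carry only a provisional locus name, with 11 above and 4 below, and 8 of them are annotated as long non-coding RNA in the RefSeq gene table of the GRCr8 assembly. Of the 14 genes that met both criteria, 6 have a symbol: Hacd1 was higher, and Morn4, Bad, Chd1l, Ube2l6 and Umodl1 were lower. Hacd1, Morn4 and Bad had the higher of their 2 group means at or above the median value of the table and were named by rule. Hacd1 met this only through WAG/RijCrl, as the mean of the others was 8.298 and the table median 8.309. The other 3 were picked after their values were seen.

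Hacd1 (chromosome 17) encodes 3-hydroxyacyl-CoA dehydratase 1, an enzyme of the cycle that lengthens very long chain fatty acids. Its value was 8.94, 8.84 and 8.85 in the 3 WAG/RijCrl animals. In the 21 others it ran from 7.95 to 8.78 with a median of 8.22. All 3 WAG/RijCrl animals were above every other animal, and the nearest were the BN/NHsdMcwi animals, at 8.68, 8.70 and 8.78. The WAG/RijCrl mean of 8.88 ± 0.05 (SD, n = 3) exceeded the mean of the other strains by 0.58 (SE 0.092, 95% interval 0.39 to 0.77, adjusted p = 0.0019). It was higher than 6 of the 7 strains in pairwise contrasts at 5% FDR, with BN/NHsdMcwi the exception. Within batch 15 the WAG/RijCrl value of 8.94 stood against 8.45 to 8.61, and within batch 16 the values of 8.84 and 8.85 stood against 8.03 to 8.68. In the whole table of 74 strains, the WAG/RijCrl mean was the highest, and all 195 other animals were below all 3 WAG/RijCrl animals.

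Morn4 (chromosome 1) encodes a small protein built of MORN repeats. It was the only gene, 0.00479% of those tested, that differed from each of the 7 strains in the same direction at 5% FDR. The WAG/RijCrl animals had 9.75, 9.78 and 9.69, and the 21 others ran from 10.01 to 10.57 with a median of 10.32. All 3 were thus below every other animal, and the lowest of the others was an LH/MavRrrc animal. Morn4 was lower by 0.57 on the log2 scale (difference -0.57, SE 0.074, adjusted p = 0.000265). The gap was 9.75 against 10.13 to 10.30 in batch 15 and 9.69 to 9.78 against 10.31 to 10.42 in batch 16. In the table of all 74 strains the WAG/RijCrl mean was the lowest and all 195 other animals were above all 3 WAG/RijCrl animals. Transcripts were matched to genes by accession in the RefSeq gene table of GRCr8, so that transcripts of a gene without a match are not counted. The 1 transcript matched to Morn4 in the transcript table was lower by the same test. Its difference was -0.79 (SE 0.12, adjusted p = 0.0056 over 45991 transcripts), and all 3 animals were outside. In that table none of the 5 matched Hacd1 transcripts passed 5% FDR (differences of 0.50 to 1.41, lowest adjusted p = 0.099), though 2 were outside. Of 3 matched Bad transcripts, 1 passed and was outside (-1.67, adjusted p = 0.019), and the others had -2.74 (0.16) and 0.21 (0.97).

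Bad (chromosome 1) encodes a member of the BCL2 family that promotes cell death and is also known in mice for an effect on brain energy metabolism and seizure sensitivity. Its values in WAG/RijCrl were 8.63, 8.43 and 8.19, against 8.78 to 9.60 (median 9.41) in the others. The WAG/RijCrl animals were the 3 lowest, but the spread between batches was wide in this gene: the 3 other animals of batch 15 were at 8.78 to 8.90, near the WAG/RijCrl animal of that batch at 8.63. In batch 16 the gap was wider, with 8.19 and 8.43 against 9.32 to 9.58. The difference was -0.89 (SE 0.15, adjusted p = 0.0040) and -0.85 (adjusted p = 0.0031) with batch as a covariate. The call was lost without WAG/RijCrl 3, at -0.78 and an adjusted p of 0.064. Over the whole table the WAG/RijCrl mean was the lowest of 74 strains, and 193 of 195 other animals were above all 3.

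Chd1l (chromosome 2) encodes a chromatin remodelling enzyme that acts in DNA repair. It had 7.81, 7.63 and 7.69 in WAG/RijCrl and 7.93 to 8.54 in the others. The nearest animals were of GK/FarMcwi, the strain with the lowest mean among the others at 8.05 ± 0.15 (SD, n = 3). The difference was -0.57 (SE 0.072, adjusted p = 0.000198), the WAG/RijCrl mean was the lowest of 74 strains, and 192 of 195 other animals were above all 3. It had 7.81 against 8.41 to 8.46 in batch 15 and 7.63 to 7.69 against 8.21 to 8.36 in batch 16. The 1 transcript matched to Chd1l had a difference of -2.09 (SE 0.99, adjusted p = 0.52) and was not outside. Its WAG/RijCrl mean was 3.59, well below the 7.71 of the gene, so that it may stand for only a part of the gene's signal. Chd1l transcripts without a match were not looked at.

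Umodl1 (chromosome 20), which encodes an uromodulin-like membrane protein, and Ube2l6 (chromosome 3), which encodes the enzyme that transfers the ubiquitin-like protein ISG15, were low as well. Umodl1 had 5.23, 5.36 and 5.32 against 5.43 to 6.22 (difference -0.47, adjusted p = 0.0030). Ube2l6 had 6.46, 6.30 and 6.21 against 6.47 to 7.26 (difference -0.53, adjusted p = 0.027). Within batch 15 Umodl1 had 5.23 against 5.53 to 5.87 and Ube2l6 had 6.46 against 6.63 to 6.64. Within batch 16 Umodl1 had 5.32 to 5.36 against 5.53 to 6.22 and Ube2l6 had 6.21 to 6.30 against 6.80 to 7.26. The Ube2l6 call was lost in 7 of 40 other settings. Among them were those without WAG/RijCrl 2 (difference -0.52, adjusted p = 0.19) and without WAG/RijCrl 3 (-0.47, 0.17). In both genes the margin to the nearest other animal was narrow, and neither was outside in a second gene table of the series, built on Ensembl gene models.

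**Figure D3:**
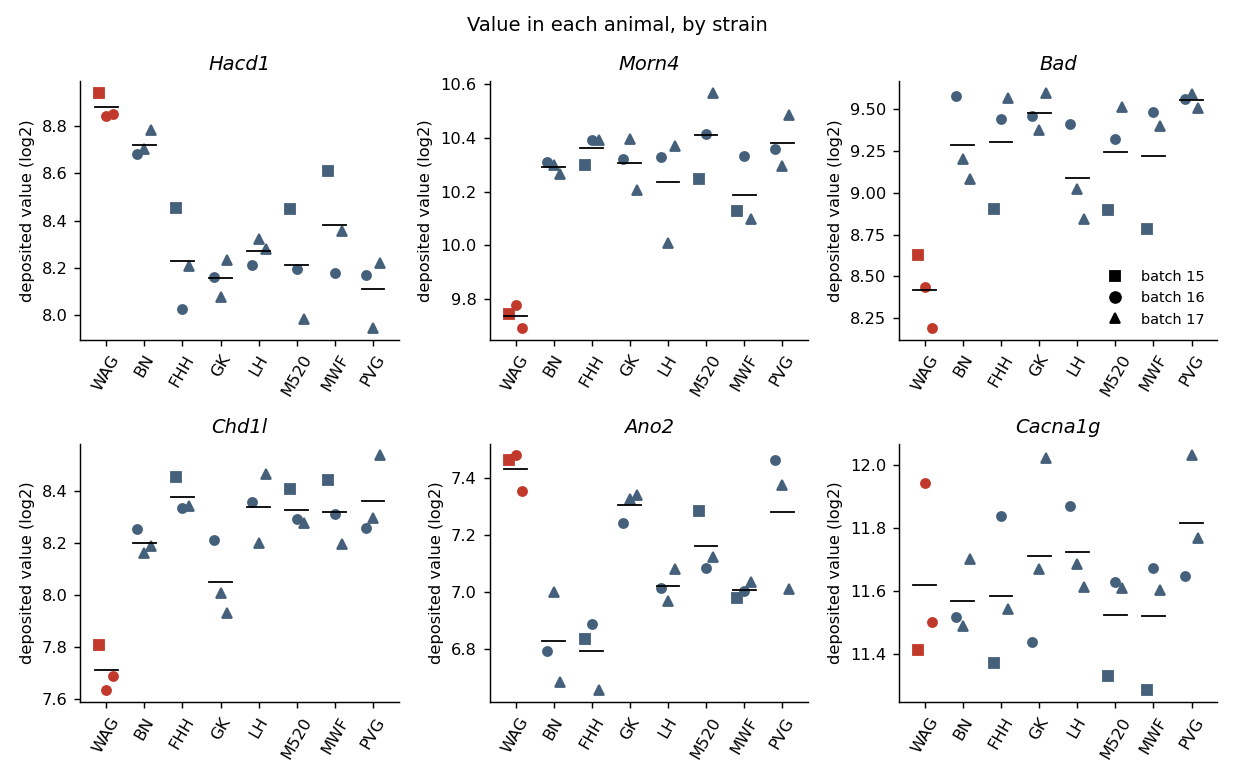
Deposited log2-scale value (y axis) in each of the 24 animals, by strain (x axis), for 4 genes that met both criteria, for the chloride channel gene Ano2 and for the T-type calcium channel gene Cacna1g; the line is the mean of the 3 animals and the shape gives the batch. In Hacd1, Morn4, Bad and Chd1l the 3 WAG/RijCrl animals (red) lie clear of all others, in Ano2 they overlap 2 PVG/Seac animals, and in Cacna1g they lie within the others.

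The remaining outside genes with a symbol did not pass 5% FDR (adjusted p from 0.052 to 0.40). They stood below the others for Rnf213, Swap70, Pitrm1 and Myorg, with differences of -0.27, -0.27, -0.20 and -0.22. They stood above for Fdxacb1, Gsto1, Ldha, Otud5 and Nipsnap1, with 0.32, 0.19, 0.18, 0.14 and 0.11. Ldha encodes the lactate dehydrogenase subunit that favours lactate production, Gsto1 a glutathione transferase and Pitrm1 a protease of mitochondria. Being outside here meant a small and even shift: Ldha had 13.32, 13.28 and 13.29 against 12.95 to 13.23.

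Among the outside genes without a symbol, LOC120099209 was higher by 1.46 (6.82, 6.60 and 6.60 against 3.87 to 6.59). The means of GK/FarMcwi (6.40), MWF/Hsd (6.38) and PVG/Seac (6.41) were close to that of WAG/RijCrl (6.67). The difference rested on BN/NHsdMcwi (3.97), LH/MavRrrc (3.94), FHH/EurMcwi (4.35) and M520/N (5.06), which were low. LOC102555783 was higher by 0.74 (5.55, 5.64 and 5.30 against 4.19 to 5.18). LOC688754 was lower, with a difference of -1.12 (4.02, 4.02 and 4.00 against 4.09 to 6.80). For these 3 the adjusted p was at most 0.0040, and each was chosen after its values were seen.

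The genes beside the named ones on the chromosome did not share their differences. Of the 3 nearest named genes on each side of Hacd1, Morn4, Bad and Chd1l, by their order in GRCr8, none was outside and none passed 5% FDR. Close to Bad, with 1 gene between them, lies Kcnk4, which encodes a potassium channel of the 2-pore family, with a difference of 0.01 (adjusted p = 0.98). Vim, close to Hacd1 and the gene of the filament protein vimentin, had -0.24 (adjusted p = 0.096). Near Umodl1, Dnah8 was higher by 0.62 (adjusted p = 0.00090) though not outside.

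That second table holds 23 of these 24 animals and was used as a further reading of the same libraries. There Hacd1 differed by 0.66 (adjusted p = 0.0017), Morn4 by -0.60 (0.00075), Bad by -0.87 (0.0033) and Chd1l by -0.56 (0.00071), and in all 4 the WAG/RijCrl animals were outside. In that reading 95 of 18644 genes passed 5% FDR, 29 were outside and 19 met both criteria. Of the 14 genes of the main table, 7 could be found there by symbol.

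Of the 158 genes past 5% FDR, 144 had WAG/RijCrl animals within the range of the others. In 49 genes exactly 1 other strain reached the WAG/RijCrl level, most often MWF/Hsd (16 genes) or PVG/Seac (14 genes), and in 42 it was 2 strains. By symbol, 33 were higher and 50 were lower. The genes named next were picked after their values were seen. Among those lower, Enpp6, an enzyme of newly forming oligodendrocytes, differed by -0.67 (adjusted p = 0.0019), with 2 PVG/Seac animals at the WAG/RijCrl level. The complement gene C3 differed by -0.63 (adjusted p = 0.047) and the microglial integrin gene Itgam by -0.42 (adjusted p = 0.0069). The lipid transporter genes Abca9 and Abca1 differed by -0.58 and -0.22. The 6 microglia markers gave no call, with a median difference of 0.009 and mean levels of 9.70, 9.94 and 9.88 against 9.66 to 10.07. Among those higher were the chemokine gene Ccl9 at 1.06 (adjusted p = 0.000198), with a single PVG/Seac animal reaching the WAG/RijCrl level, and Cfap206 and Jhy, genes of motile cilia, at 0.72 and 0.64. Of the 6 markers of ependyma, a ciliated cell layer, 5 were positive (median 0.10, no call), with mean levels of 6.94, 7.59 and 6.99 against 6.77 to 7.36, and the part of this in the Cfap206 and Jhy values was not tested.

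Against single strains the number of genes past 5% FDR ran from 215 (1.03%) for PVG/Seac to 524 (2.51%) for LH/MavRrrc. It was 244 (1.17%) for MWF/Hsd, 311 (1.49%) for M520/N, 351 (1.68%) for FHH/EurMcwi, 484 (2.32%) for GK/FarMcwi and 513 (2.46%) for BN/NHsdMcwi. These contrasts share the same 3 WAG/RijCrl animals, and MWF/Hsd includes the library that stood apart.

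Ion channel genes differed about as little as genes in general. Of 362 in the list, 328 were measured. None was outside and none met both criteria. A single one, the calcium-activated chloride channel gene Ano2, passed 5% FDR, which is 0.305% of the list against 0.757% of all genes. At an unadjusted p under 0.05 there were 34 ion channel genes (10.4%), and 2427 among all genes (11.6%). The median difference over the list was 0.003, against -0.002 over all genes, and 311 of 328 (94.8%) differed by less than 0.25, against 92.9% of all genes. The 95% interval lay within 0.5 on either side of 0 for 306 of them (93.3%, against 91.1% of all genes), so that for these a larger shift of the whole-brain level lay outside the interval. Allowing up to 2 other animals at the WAG/RijCrl level added Ano2 and Kcnj8, or 0.61% of the list, where 1.05% of all genes met that looser rule.

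Ano2 (chromosome 4) had 7.46, 7.48 and 7.35 in WAG/RijCrl against 6.65 to 7.46 in the others. Of the other animals, only 2 of PVG/Seac, at 7.46 and 7.37, were above the lowest WAG/RijCrl animal. The mean of 7.43 ± 0.07 (SD, n = 3) was higher by 0.38 (SE 0.078, 95% interval 0.21 to 0.54, adjusted p = 0.021). It was higher than 4 of the 7 strains in pairwise contrasts, while GK/FarMcwi at 7.30 ± 0.05 and PVG/Seac at 7.28 ± 0.24 (SD, n = 3 each) were among the strains from which it did not differ at 5% FDR. In batch 15 it had 7.46 against 6.83 to 7.28, and in batch 16, 7.35 and 7.48 overlapped with 6.79 to 7.46. The mean was the highest of 74 strains, with 181 of 195 other animals below all 3. The call was lost in 9 of 40 other settings: without WAG/RijCrl 2 the difference was 0.35 (adjusted p = 0.19), without WAG/RijCrl 1 it was 0.36 (0.091) and without WAG/RijCrl 3 it was 0.41 (0.058). In the second gene table it was 0.37 (adjusted p = 0.042). The neighbours of Ano2 include the potassium channel genes Kcna1 and Kcna5, at -0.11 and 0.12, neither past 5% FDR.

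The 3 higher and the 3 lower ion channel genes with the smallest p-values in each direction are given here, and of these only Ano2 passed. Kcnj8, which encodes a pore subunit of ATP-sensitive potassium channels found mainly in pericytes, had 7.24, 7.32 and 7.21 against 6.72 to 7.37, and only 2 PVG/Seac animals reached that level (difference 0.27, adjusted p = 0.078). Within batch 15 it had 7.24 against 6.91 to 6.94 and within batch 16 it had 7.21 and 7.32 against 6.72 to 7.19. It passed in 5 other settings, at 0.32 (adjusted p = 0.017) with batch as a covariate and at 0.32 (0.038) without PVG/Seac. Kcnj8 is also 1 of the 6 pericyte and smooth muscle markers, and 5 of the 6 differences in that list were negative. Kcnip1, which encodes a protein that modulates A-type potassium channels, had 9.58, 9.59 and 9.43 against 9.05 to 9.58 (difference 0.21, adjusted p = 0.11).

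On the lower side the nearest were Itpr2, Gjc1 and Kcnj10. Itpr2, the gene of the inositol trisphosphate receptor that astrocytes mainly use, had 10.24, 10.09 and 10.18 against 10.13 to 10.80 (difference -0.20, adjusted p = 0.13). Gjc1, the gene of connexin 45, had 7.46, 7.18 and 7.44 against 7.41 to 7.76 (difference -0.23, adjusted p = 0.13). Within batch 15 Gjc1 had 7.46 against 7.60 to 7.76, and within batch 16 it had 7.18 and 7.44 against 7.45 to 7.66. It passed in 1 of 39 other settings, with batch as a covariate (adjusted p = 0.025), but not when WAG/RijCrl 2 and MWF/Hsd 1 were left out of that fit. Itpr2 passed in 1 of 41 other settings (adjusted p = 0.040), and Kcnj10 in none. Kcnj10, which encodes the inward rectifier by which astrocytes take up potassium, had 12.42, 12.24 and 12.43 against 12.31 to 12.88 (difference -0.19, adjusted p = 0.20). The lowest Kcnj10 value was that of WAG/RijCrl 2. Of the 6 astrocyte markers 5 had a negative difference, with a median of -0.18 and no call. Their mean levels were 13.54, 13.47 and 13.61 against 13.57 to 13.85, so that WAG/RijCrl 1 and 2 were below all others. The part of that shift in the Kcnj10 and Itpr2 values was not tested.

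**Figure D4:**
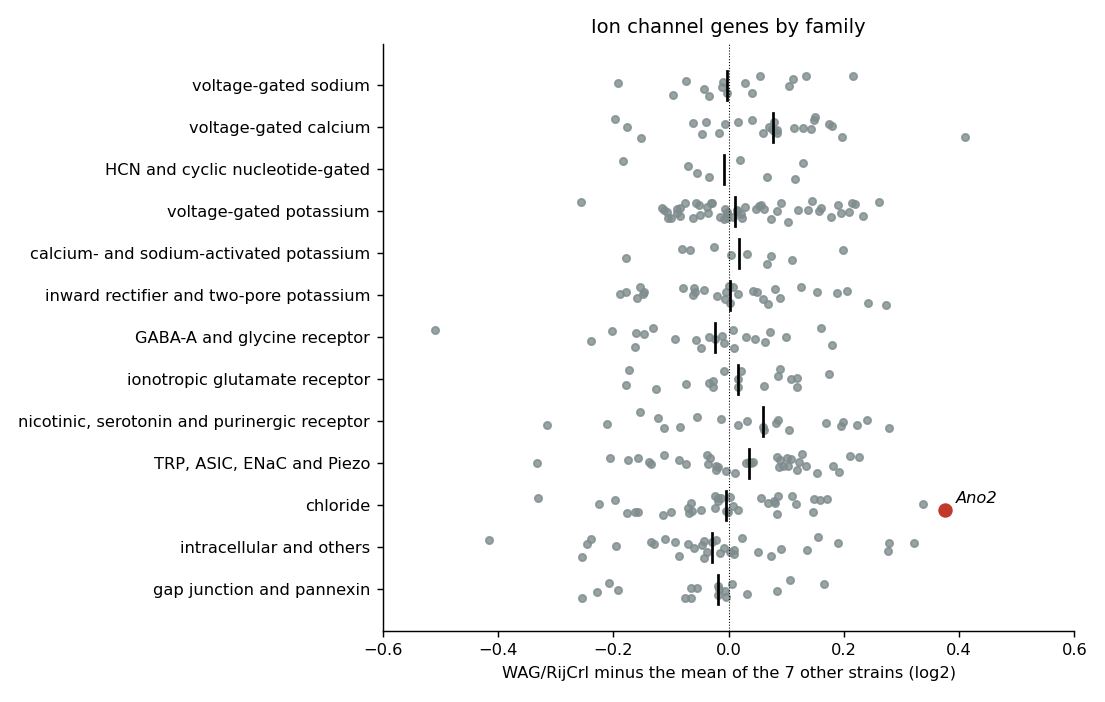
Difference between WAG/RijCrl and the mean of the 7 other strains (x axis, log2) for the 328 measured ion channel genes (points) in 13 families (y axis); the bar is the family median and the red point is past 5% FDR. The points crowd around 0 in every family, and Ano2 at 0.38 is the single call.

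By family, the voltage-gated sodium channel genes, which carry the upstroke of the action potential, lay within -0.19 and 0.22 (15 genes, median -0.002). The 26 voltage-gated calcium channel genes had the highest median, 0.08, and 18 of them were positive. The largest of these was Cacna1f, the gene of a channel known mainly from the retina, at 0.41 (adjusted p = 0.11). That family's mean level was 9.57, 9.80 and 9.63 in the 3 WAG/RijCrl animals and 9.48 to 9.72 in the others, so that WAG/RijCrl 2 alone was above all of them. Voltage-gated potassium channel genes lay between -0.26 and 0.26 (52 genes, median 0.01) and here too WAG/RijCrl 2 alone, at 9.78, was above the 9.72 of the highest other animal. The 8 HCN and cyclic nucleotide-gated channel genes had a median of -0.007. Inward rectifier and 2-pore potassium channel genes had a median of 0.002 (30 genes). WAG/RijCrl 2 was also above the highest other animal in the mean level of that family (8.30 against 8.25), of ionotropic glutamate receptor genes (11.23 against 11.21), of nicotinic, serotonin and purinergic receptor genes (6.65 against 6.60), of the TRP, ASIC, ENaC and Piezo genes (7.51 against 7.45) and of the whole list (8.63 against 8.60).

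Among channels opened by transmitters, the 23 measured GABA-A and glycine receptor genes had a median of -0.02 and 14 were negative. The lowest of all ion channel genes was Gabra6, the receptor subunit of cerebellar granule cells, at -0.51 (adjusted p = 0.39). Gabra6 is also a cerebellum marker, and all 6 markers of that list were lower on average in WAG/RijCrl (median -0.23, no call), with mean levels of 10.52, 10.59 and 10.46 against 10.38 to 11.20. The 18 ionotropic glutamate receptor genes had a median of 0.02 and the 21 nicotinic, serotonin and purinergic receptor genes had 0.06. The chloride channel family, with Ano2, had a median of -0.004 over 37 genes.

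The number of genes past 5% FDR moved most with the handling of batch. With batch as a covariate, 1232 genes passed 5% FDR (5.91%), 596 higher and 636 lower, and 20 ion channel genes were among them (6.10%), 13 higher and 7 lower. The 7 lower included Gabra6, Gabrb2 and Gabrg1 of the GABA-A receptor family. When WAG/RijCrl 2 and MWF/Hsd 1 were left out of the same fit, 131 genes passed (0.628%) and Clca1 was the only ion channel gene among them, so that the other calls of the 20 were lost. Clca1 had a difference of 0.34 (adjusted p = 0.12) without the covariate. When the animals of batch 17 were left out altogether, 9 genes passed (0.0431%), 245 were outside and 2 met both criteria, neither of them among the 14, and of the ion channel genes Gabrg1 and Kcnj8 were then outside.

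All 36 genes of a list drawn up for their ties to absence seizures, from rodent models, human syndromes or drug targets, were measured. None was outside, none passed 5% FDR, and every difference was smaller than 0.25 (median -0.009). Over all genes 0.757% passed. Without WAG/RijCrl 2 the sign of the difference changed in 13 of the 36 and no gene passed. Within batch 16 both WAG/RijCrl animals lay beyond the 7 others in 6 of the 36 genes, and 4 of these were on the same side of the others in batch 15. The same counts were not made over all genes, so that nothing is read from them.

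Of the T-type calcium channel genes, Cacna1g had 11.41, 11.94 and 11.50 against 11.28 to 12.03 (difference -0.02, adjusted p = 0.98; -0.18 without WAG/RijCrl 2). Cacna1h had 9.77, 10.54 and 10.01 against 9.54 to 10.30 (difference 0.15, 95% interval -0.19 to 0.48). Its sign rested on WAG/RijCrl 2, the only animal above all others, and without that library the difference was -0.07. Cacna1i differed by 0.11, and by -0.05 without WAG/RijCrl 2. The 95% intervals of the 3 genes, of which that of Cacna1h was the widest, all included 0.

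Cacna1a, the gene of the P/Q-type calcium channel whose mutation causes absence seizures in several mouse strains, differed by -0.18 (95% interval -0.34 to -0.01, adjusted p = 0.38), and 72 of 73 other strain means in the whole table were above that of WAG/RijCrl. The batches differed: WAG/RijCrl was above the others in batch 15 (12.37 against 12.22 to 12.31) and below them in batch 16 (12.26 and 12.33 against 12.40 to 12.67). Its partner subunit genes Cacng2 and Cacnb4 differed by -0.20 and -0.15, and Cacna2d2 by -0.01, with adjusted p-values of 0.42 or more. These values moved with single WAG/RijCrl animals: leaving out 1 animal in turn gave -0.27 to -0.11 for Cacng2, -0.24 to -0.02 for Cacnb4 (the last without WAG/RijCrl 2) and -0.10 to 0.05 for Cacna2d2, so that the last had no steady direction.

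Among the HCN channel genes, Hcn2 differed by 0.07, with a 95% interval of -0.22 to 0.36 that included 0. Without WAG/RijCrl 2 the direction turned, to -0.12.

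Sodium channel genes of the list were near 0 for the 3 given here: Scn1a differed by -0.10, Scn2a by -0.04 (0.03 without WAG/RijCrl 2) and Scn8a by -0.01. Scn1a was below the others in batch 15 (13.36 against 13.53 to 13.59) and in batch 16 (13.18 and 13.25 against 13.29 to 13.52). The GABA-A receptor gene Gabrd, whose subunit forms receptors outside synapses, differed by 0.06 (-0.08 without WAG/RijCrl 2) and the GABA transporter gene Slc6a11 by -0.16. Slc2a1, the glucose transporter gene of the blood-brain barrier that is mutated in a human syndrome with absence seizures, differed by -0.18 (adjusted p = 0.41).

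The largest difference of the list in either direction was that of the dopamine receptor gene Drd1, at 0.25 (adjusted p = 0.26). Drd1 passed the FDR cut in 1 of 41 other settings (adjusted p = 0.015), and its difference ran from 0.18 to 0.36 over them. Its values were 10.73, 10.50 and 10.81 against 10.06 to 10.69, so that 2 of 3 WAG/RijCrl animals were above all others while WAG/RijCrl 2 was among them. The mean was the highest of 74 strains. Drd1 is also a striatum marker, and all 6 markers of that list were positive (median 0.18, no call), with mean levels of 10.56, 10.67 and 10.74 against 10.23 to 10.76. Whether more striatal tissue entered the WAG/RijCrl samples was not tested.

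**Figure D5:**
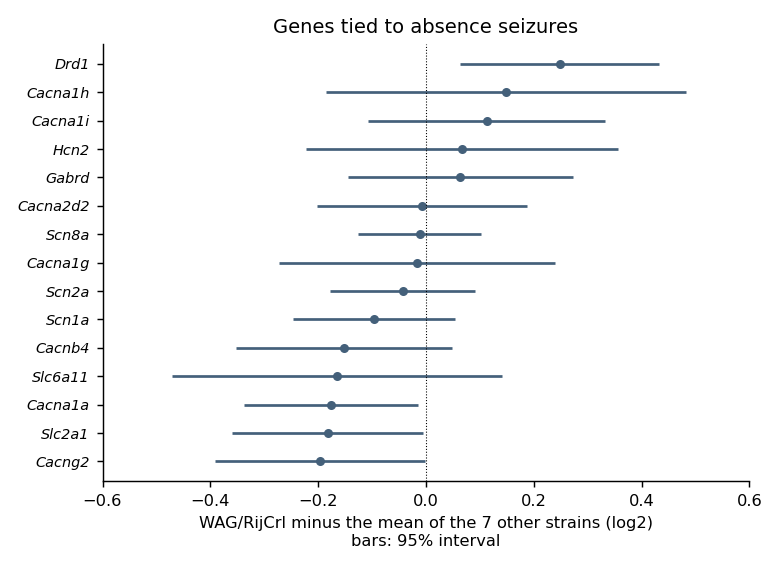
Difference between WAG/RijCrl and the mean of the 7 other strains (x axis, log2) for 15 of the 36 genes tied to absence seizures, those named in the text (y axis, sorted by difference); points are estimates and bars are 95% intervals, unadjusted. All points lie within 0.25 of 0, from Drd1 at 0.25 to Cacng2 at -0.20, and none passed 5% FDR.

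The lists of transporters, inhibitory and glutamate transmission and immediate early genes gave no call. The 11 chloride and potassium transporter genes had a median of -0.07, with Slc12a2 at -0.19. The 18 genes of inhibitory transmission had a median of -0.002, with Sst at 0.27 and Calb2 at 0.26. Metabotropic glutamate receptor and glutamate transport genes had a median of 0.05 over 16 genes, led by Slc1a6 at -0.30 and Slc17a7 at 0.23. Of the 15 immediate early genes, which respond within minutes to neuronal activity, 13 were positive with a median of 0.16, led by Npas4 at 0.43 (adjusted p = 0.52) and Dusp1 at 0.33. Their mean level was 8.74, 9.18 and 9.17 in the WAG/RijCrl animals and 8.36 to 9.31 in the others, so that the groups overlapped. All 22 marker lists of cell types, regions and tissues were without a call. Their largest medians were 0.30 for hypothalamus and -0.29 for meninges and fibroblasts, whose mean levels were 10.03, 9.88 and 9.88 against 9.88 to 10.40.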

How the data were processed

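The authors deposited gene and transcript tables on a log2 scale. Per the submitters' processing notes, reads were handled with cutadapt 1.9.1, Bowtie2 2.3.4.3, HISAT2 2.1.0, StringTie 1.3.5, RSEM 1.3.1 and DESeq2; for an earlier table the study's methods describe removal of 1 unwanted factor and a regularized log transformation, which shrinks low values toward their mean. The genome build of the tables used here is not given in the sources used here, so only chromosomes are stated, from the position columns of the deposited annotation (unit other). Rows of 73 spike-in RNAs were removed from the 20932 rows of the RefSeq gene table, and 1 unassigned column of the Ensembl table was not used. No filter or pseudocount was applied. Deposited strain means and the remaining tables were not used.

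Groups came from the strain labels. A layout with 1 mean per strain was fitted with limma 3.58.1 in R 4.3.3, to all genes at once, as the main test. The script was tested on simulated data. No label says that the 3 animals of a strain came from separate litters, so that p-values measure the spread between these animals. The members and gene lists were chosen with earlier results of these data known. Named by rule were symbol-bearing genes past both criteria with a group mean at or above the table's median value (8.31), the 3 ion channel genes nearest to the call that were higher and the 3 that were lower, and the genes of the absence seizure list; the 2 largest differences stand for other lists. Some of these items are not reported here. Symbols for the Ensembl table (15463 of 18644 genes) came from the deposited annotation. Alternatives left out animals, strains, batch 17 or low genes, or changed table, covariates, variance model or samples; array weights and leaving out WAG/RijCrl 2 with MWF/Hsd 1 were added after seeing the data.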

Additional observations from a re-analysis of the deposited data

How the results depend on the processing

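The number of genes past 5% FDR, 158, became 1232 with batch as a covariate, 670 with array weights, 95 in the Ensembl table, 81 without WAG/RijCrl 2 and MWF/Hsd 1, 30 when only genes at or above the table's median were kept and 9 when only batches 15 and 16 were kept. Leaving out 1 animal gave 61 to 176, the lowest without WAG/RijCrl 2 and with 99 without WAG/RijCrl 3. The number of outside genes, 30, became 55, 47, 59 and 53 without BN/NHsdMcwi, LH/MavRrrc, MWF/Hsd and PVG/Seac, 12 with the filter on low genes, 245 in batches 15 and 16, and 98 without both libraries. A range over fewer animals is narrower, so these counts rise by construction. Leaving out 1 animal gave 30 to 228. The 14 genes that met both criteria became 24, 34 and 28 without BN/NHsdMcwi, MWF/Hsd and PVG/Seac, 23 with batch as a covariate, 24 with array weights, 3 with the filter and 2 in batches 15 and 16. Leaving out 1 animal gave 12 to 35, with 30 without WAG/RijCrl 1 and 35 without WAG/RijCrl 3; without WAG/RijCrl 2 the count was 12, of which 9 were among the 14. No ion channel gene met both criteria under any setting but that without PVG/Seac, where 2 did (Ano2 and Kcnj8). The range over animals left out was 0 to 0.

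Of 28 pairs of strains, 14, 11 and 9 had a correlation over 0.1 for replicates 1, 2 and 3, with medians of 0.109, 0.021 and -0.029. Animals with different replicate numbers were not compared, so that these values cannot tell whether the numbers pair the animals. With the replicate block 215 genes passed 5% FDR, 15 met both criteria and no ion channel gene met both. Over named genes and their settings, no called difference changed sign, 148 calls were lost, 57 were gained and 89 uncalled differences changed sign. Hacd1 and Morn4 lost their calls only in batches 15 and 16 (0.57, adjusted p = 0.23, and -0.58, 0.054), and Bad there (-0.93, 0.14) and without WAG/RijCrl 3 (-0.78). The causes were not tested. Depth is unknown, so no limit from counting could be given; 3 animals and 1 strain limit every result.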

Other observations

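A list of genes known for their response to interferon was drawn up after Ube2l6 and Rnf213 had been seen to be low, so that its counts are a description and lend no support. Of 55 measured, 8 were lower past 5% FDR and 0 higher (14.5%, against 0.757% of all genes), 45 differences were negative and 10 positive, and the median was -0.16 (-0.0025 over all genes). Besides Ube2l6 the calls included Ifit1 (-0.64), Slfn3 (-0.58), Gbp6 (-0.53), Oas1b (-0.53), Casp4 (-0.51) and Ifit3 (-0.48), with adjusted p-values of 0.0052 to 0.030. All 8 calls were lost without WAG/RijCrl 2. Slfn3, of a family known from immune cells, had 4.38, 4.16 and 4.10 against 4.13 to 5.27, and its mean was the lowest of 74 strains. For Ifit1 the difference rested on other strains that were high: the others ran from 4.23 to 7.91 with a median of 4.68, close to the 4.89, 4.69 and 4.36 of WAG/RijCrl.

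Of 34 genes of RT1, the rat major histocompatibility complex on chromosome 20, 2 were higher and 5 lower past 5% FDR (20.6%, against 0.757% of all genes), and none was outside; this group too was picked after its values were seen, so that nothing is read from the share. Of the 7 calls, 6 were kept without WAG/RijCrl 1, 4 without WAG/RijCrl 2 and 3 without WAG/RijCrl 3. RT1-N2 was higher by 1.38 (5.77, 5.72 and 5.70 against 3.47 to 6.59), with 2 MWF/Hsd animals at or above that level. RT1-T24-3 was higher by 0.51 than the mean of the other strains, but GK/FarMcwi (7.75), LH/MavRrrc (7.13) and PVG/Seac (7.04) were above WAG/RijCrl (7.02), while BN/NHsdMcwi (5.00) and FHH/EurMcwi (5.21) were low. Its difference was 0.26 (adjusted p = 0.36) without BN/NHsdMcwi, 0.30 (0.26) without FHH/EurMcwi and 0.23 (0.30) in the Ensembl table, and the call was lost in 10 settings. RT1-CE16 (-0.89), RT1-CE11 (-0.89), RT1-A3 (-0.79), RT1-S3 (-0.51) and RT1-CE3 (-0.45) were lower. At least 1 MWF/Hsd animal reached the WAG/RijCrl level in each of these 5, and the means of both strains were close in RT1-S3 (8.47 in WAG/RijCrl, 8.40 in MWF/Hsd), RT1-CE16 (8.05 and 8.12) and RT1-A3 (6.29 and 6.35). RT1-CE3 was the least steady of them, losing its call in 26 settings. These genes are near copies of one another and differ in sequence between strains, so that the authors' counting could split reads between them and their values are uncertain.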
